A study of Mus musculus with 8 samples.

Results

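The 9 genes of islet electrical activity described here were Abcc8 and Kcnj11 of the ATP-sensitive potassium (KATP) channel, the calcium channel genes Cacna1a, Cacna1c and Cacna1d, the sodium channel genes Scn3a and Scn9a, and the cation channel genes Trpm5 and Trpm4. They were chosen by name, with earlier results of these data known. All 9 of 9 were found among the 24469 genes of both deposited tables and passed the filter on low counts. RNA was sequenced from islets that had been picked by hand from mice aged 8 weeks. The 4 knockout mice had lost U32a, U33, U34 and U35a, small nucleolar RNAs (snoRNAs) that lie in introns of Rpl13a, on a C57BL/6 background, and the 4 wild-type mice were C57BL/6. Each library stands for 1 mouse, per the labels, which do not say in which tissues the snoRNAs were lost, and the question was which islet transcripts differ between the genotypes.

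In beta cells, the insulin-secreting cells of the islet, glucose metabolism raises ATP, which closes KATP channels and depolarizes the membrane. Voltage-gated sodium and calcium channels then carry the action potential, and calcium entry triggers the release of insulin granules. TRPM4 and TRPM5 are opened by intracellular calcium and carry monovalent cations inward, adding to depolarization.

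Depth was 2.12e+07 to 3.23e+07 counts in knockout and 2.48e+07 to 4.11e+07 in wild type. These totals include the ribosomal RNA precursor Rn45s, at 36.8 to 41.3% of counts in knockout and 36.7 to 38.9% in wild type. Snord32a had 0 counts in each knockout library and 5, 1, 1 and 2 in wild-type replicates 1 to 4. Snord33 had 0 in each knockout library and 2, 0, 4 and 0 in wild-type replicates 1 to 4. Both rows are near the floor, so this check of the labels rests on few reads. Snord34 and Snord35a had 0 in every library and check nothing. Rpl13a averaged 97.8 ± 8.16 CPM in knockout and 105 ± 26.0 CPM in wild type (mean ± SD, n = 4 each), where CPM is counts scaled to a library of 1e+06 with TMM composition factors. Every beta, alpha, delta, PP and acinar marker listed had counts in every library, and the preparations differed in their exocrine share. The 20 acinar markers took 4.82 to 25.5% of counts in knockout and 1.87 to 23.9% in wild type, and the 13 beta cell markers took 8.7 to 16.4% and 10.1 to 24.1%. Wild-type replicate 1 had the largest acinar share and the smallest beta cell share of its group. In these bulk samples fewer beta cells and less RNA per beta cell cannot be told apart.

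Of the 9 channel genes, 8 had lower estimates in knockout islets and Scn3a had a higher one, with a median log2 fold change of -0.35 against 0.0098 for all genes tested. None passed a false discovery rate (FDR) of 0.05 in edgeR's quasi-likelihood test, whose calls made up 0.0147% of the 13617 genes tested. At an unadjusted p under 0.05, 4 members were lower (Abcc8, Kcnj11, Trpm5 and Cacna1c) and 1 higher (Scn3a), where 10.3% of all genes were lower and 8.42% higher. All 4 knockout libraries lay below all wild-type libraries for 3 members, against 4.66% of all genes, and above them for 1, against 3.68%. DESeq2 called 4 members, against 3.8% of all genes, and limma-voom 0. Without wild-type replicate 1, 6 of the 9 passed FDR 0.05, 5 lower and 1 higher, while 9.46% of 13874 genes passed. The wild-type libraries left in that fit had acinar shares of 1.87 to 13%, against 4.82 to 25.5% in knockout. With any other single library left out, 0 members passed.

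The KATP channel genes were lower in every knockout library than in any wild-type library. Abcc8 encodes SUR1, the regulatory subunit that senses magnesium nucleotides and binds sulfonylurea drugs. Knockout replicates 1 to 4 held 4542, 8100, 5979 and 7652 counts of it, or 267, 264, 264 and 246 CPM. Wild-type replicates 1 to 4 had 8832, 15009, 11826 and 15257 counts, or 288, 452, 409 and 427 CPM. The knockout libraries lay within a narrow band, and wild-type replicate 1 came closest to it. The means were 260.3 ± 9.75 CPM in knockout and 394 ± 72.8 CPM in wild type. On the log2 scale the difference was -0.60 ± 0.14 (SE, edgeR adjusted p = 0.120), or a change of -33.9%.

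Kcnj11 encodes Kir6.2, the inward rectifier that forms the channel pore and is closed by ATP. It was measured at 27.2, 29.9, 29.2 and 27.7 CPM in knockout replicates 1 to 4, and at 33.3, 49.2, 36.0 and 43.8 CPM in wild-type replicates 1 to 4. The lowest wild-type value again belonged to replicate 1, and it stood above the highest knockout value. The log2 fold change was -0.51 ± 0.12 (edgeR adjusted p = 0.135). Scaled per kilobase of the longest coding transcript, Kcnj11 stood at 0.170 ± 0.0081 of the Abcc8 level in knockout and 0.161 ± 0.018 in wild type (n = 4 each). These ratios overlapped (two-sided exact permutation p = 0.486, adjusted over 4 ratios 0.486).

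Among the relatives of these subunits, Abcc9 encodes SUR2, which is known from heart, smooth muscle and blood vessels. It averaged 9.60 ± 2.23 CPM in knockout and 6.66 ± 1.31 CPM in wild type (log2 fold change 0.53 ± 0.19, edgeR adjusted p = 0.191). Kcnj8, the pore subunit that pairs with SUR2 in vessels, did not pass the filter on low counts. Of 8 endothelial markers 1 had a higher and 7 a lower estimate in knockout (0.0117 to 0.0241% of counts in knockout, 0.0132 to 0.0322% in wild type). Of 7 stellate and fibroblast markers tested, 5 had positive estimates (0.0110 to 0.0357% and 0.0134 to 0.0250%). None of these markers passed FDR 0.05. An unadjusted p under 0.05 was found for 1 of each list, where 10.3% of all genes were lower and 8.42% higher. The part of these cells in the Abcc9 level was not tested.

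**Figure D1:**
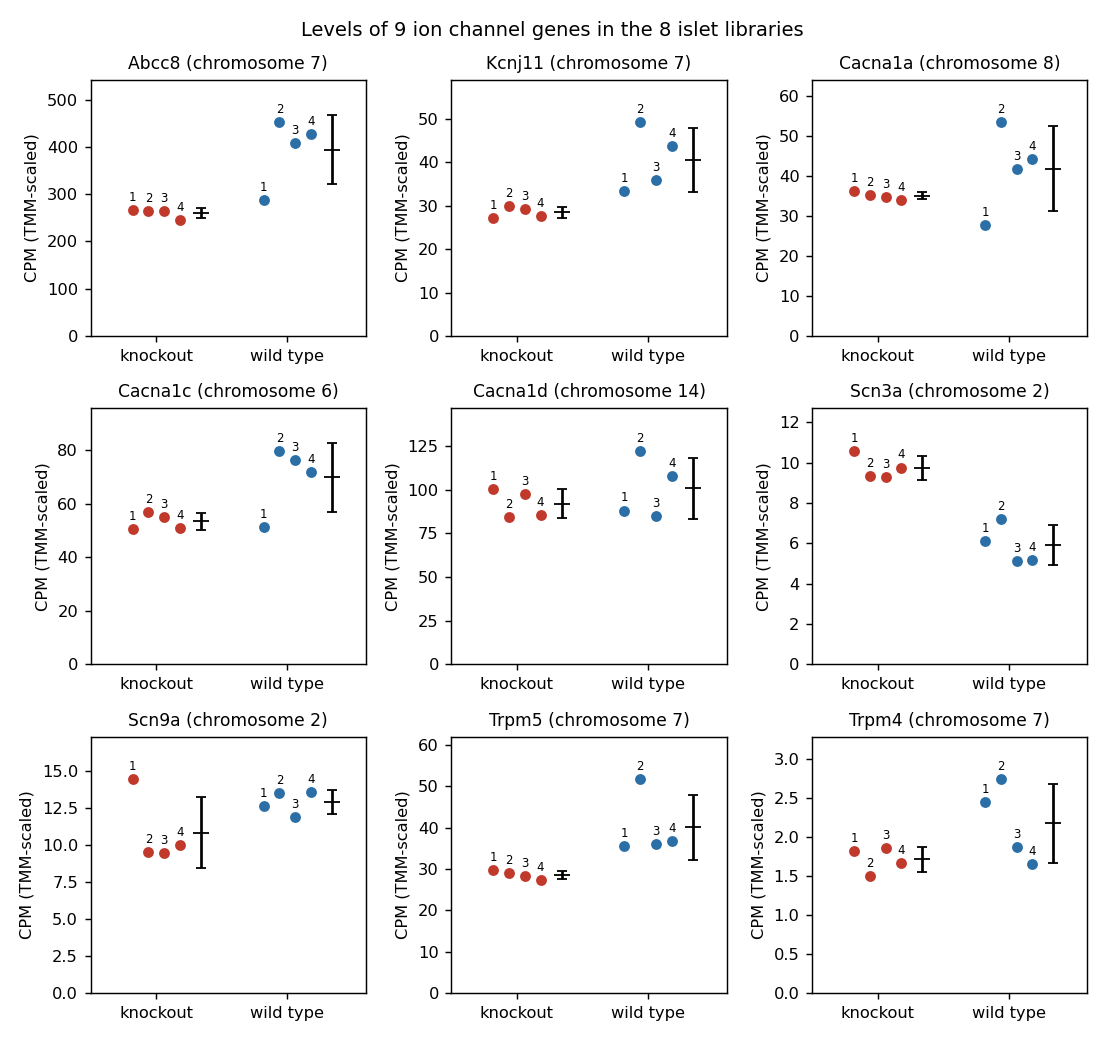
TMM-scaled CPM (vertical axes, from 0) of the 9 channel genes, 1 panel each, with knockout libraries at left and wild-type libraries at right. Points are libraries numbered by replicate, and the bar at the right of each group is the mean ± SD (n = 4). The groups are apart for Abcc8, Kcnj11 and Trpm5, lower in knockout, and for Scn3a, higher in knockout.

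Both L-type calcium channel genes and the P/Q-type gene had negative estimates, largest in size for Cacna1c. Cacna1c encodes the pore of Cav1.2, an L-type channel of mouse beta cells. It had 50.6, 56.9, 55.2 and 51.1 CPM in knockout replicates 1 to 4 and 51.3, 79.8, 76.5 and 72.0 CPM in wild-type replicates 1 to 4. Wild-type replicate 1 fell among the knockout values, and the other wild-type libraries stood above all of them. The log2 fold change was -0.39 ± 0.13 (edgeR adjusted p = 0.183), and -0.52 ± 0.084 without wild-type replicate 1 (adjusted p = 0.0097). With any other single library left out it lay between -0.42 and -0.32 (edgeR adjusted p from 0.212 to 0.423).

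Cacna1d encodes Cav1.3, the L-type channel that opens at lower voltages. It had 100.2, 84.5, 97.6 and 85.3 CPM in knockout replicates 1 to 4 and 88.0, 122, 85.1 and 108 CPM in wild-type replicates 1 to 4. The groups overlapped over most of their range, and the log2 fold change of -0.13 ± 0.13 was about the size of its error (edgeR adjusted p = 0.583). Leaving out wild-type replicate 2 gave -0.028, and leaving out wild-type replicate 3 gave -0.22. Cacna1a encodes Cav2.1, the pore of P/Q-type channels. It had 36.1, 35.3, 34.7 and 33.9 CPM in knockout replicates 1 to 4, against 27.7, 53.3, 41.6 and 44.2 CPM in wild-type replicates 1 to 4. The knockout libraries lay between the lowest wild-type library, replicate 1, and the other wild-type libraries. Its log2 fold change was -0.25 ± 0.16 (edgeR adjusted p = 0.405), -0.42 without that library (adjusted p = 0.0289) and -0.11 without wild-type replicate 2 (adjusted p = 0.734).

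Scn3a had the smallest p of the 9 genes and was the only one with a higher estimate in knockout. It encodes Nav1.3, and with Nav1.7 of Scn9a it is among the sodium channels known from mouse islet cells. Scn3a had 180, 286, 210 and 304 counts in knockout replicates 1 to 4, or 10.6, 9.33, 9.28 and 9.77 CPM. Wild-type replicates 1 to 4 had 187, 240, 149 and 185 counts, or 6.10, 7.22, 5.15 and 5.18 CPM. Every knockout library was above every wild-type library. The log2 fold change was 0.72 ± 0.13, or a 1.65-fold level, with an edgeR adjusted p of 0.116 and rank 16 by p among all genes tested. Without wild-type replicate 1 it was 0.72 ± 0.14 (adjusted p = 0.0181). Leaving out any other single library gave 0.64 to 0.83 (edgeR adjusted p from 0.124 to 0.366).

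Scn9a, which lies in the same cluster of sodium channel genes on chromosome 2, did not share this direction. It had 14.4, 9.49, 9.41 and 9.99 CPM in knockout replicates 1 to 4 and 12.6, 13.5, 11.9 and 13.5 CPM in wild-type replicates 1 to 4. Knockout replicate 1 was the highest of all 8 libraries, while the other knockout libraries were the lowest. The log2 fold change was -0.26 ± 0.14 (edgeR adjusted p = 0.340), and -0.43 without knockout replicate 1 (adjusted p = 0.124). Per kilobase, the ratio of Scn3a to Scn9a was 0.756, 1.01, 1.02 and 1.01 in knockout and 0.497, 0.55, 0.447 and 0.394 in wild type. The groups did not overlap, and the two-sided exact permutation p was the smallest that 70 splits allow (0.0286, adjusted over 4 ratios 0.114). Counts of Scn3a in 8 libraries, Scn9a in 7, Cacna1d in 8 and Cacna1c in 1 were not whole within 0.05. Those of the other channel genes among the 9 were whole in every library. How such values arose is not given in the sources, so the levels of these genes are uncertain. The genes have close paralogs, and the part of shared reads was not tested. Exons of Scn9a and Cacna1d also overlap a gene on the other strand (Gm13629 and Chdh), whose reads cannot be told apart where strand was not used in counting.

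The TRP channel genes both had negative estimates. Trpm5 had 29.7, 29.1, 28.4 and 27.4 CPM in knockout replicates 1 to 4 and 35.5, 51.7, 36.2 and 36.9 CPM in wild-type replicates 1 to 4. Each knockout library was below each wild-type library, and wild-type replicate 2 stood well above the rest. The log2 fold change was -0.48 ± 0.12 (edgeR adjusted p = 0.144), and -0.34 without wild-type replicate 2. Trpm4 was the lowest of the 9 genes, with 31, 46, 42 and 52 counts in knockout replicates 1 to 4 and 75, 91, 54 and 59 in wild-type replicates 1 to 4. Its CPM ranged from 1.5 to 1.86 in knockout and from 1.65 to 2.74 in wild type, and the groups overlapped. The log2 fold change of Trpm4 was -0.35 ± 0.21 (edgeR adjusted p = 0.376), and -0.22 without wild-type replicate 2.

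Promoter windows from RefSeq (GRCm38.p6, 250 bases before to 50 after the start) were at hand for 4 of the 9 genes: Cacna1c, Cacna1d, Scn9a and Trpm5. Abcc8, Kcnj11, Cacna1a, Scn3a and Trpm4 had no entry. Windows are shown for Trpm5 and Cacna1c, whose estimates were lower along with the KATP genes, and for Cacna1d, the L-type gene whose groups overlapped. All 3 lie on the minus strand, at chr7:143094593-143094892, chr6:119196360-119196659 and chr14:30491107-30491406, using the outermost start of each gene. Capitals mark matches on either strand to the GC box GGGCGG, the TATA box TATAAA, the E box CANNTG or the cyclic AMP response element TGACGTCA.
Trpm5: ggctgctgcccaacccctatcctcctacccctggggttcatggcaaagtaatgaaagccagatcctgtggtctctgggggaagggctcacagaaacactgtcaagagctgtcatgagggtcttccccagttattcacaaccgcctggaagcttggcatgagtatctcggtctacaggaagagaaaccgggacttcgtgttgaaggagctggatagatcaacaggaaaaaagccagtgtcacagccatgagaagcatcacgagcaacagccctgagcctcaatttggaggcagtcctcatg
Cacna1c: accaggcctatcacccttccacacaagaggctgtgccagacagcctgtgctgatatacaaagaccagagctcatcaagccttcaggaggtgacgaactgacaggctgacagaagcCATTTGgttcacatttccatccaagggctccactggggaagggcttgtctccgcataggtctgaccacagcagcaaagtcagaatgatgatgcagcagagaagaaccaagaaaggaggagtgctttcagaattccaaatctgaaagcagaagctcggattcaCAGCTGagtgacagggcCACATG
Cacna1d: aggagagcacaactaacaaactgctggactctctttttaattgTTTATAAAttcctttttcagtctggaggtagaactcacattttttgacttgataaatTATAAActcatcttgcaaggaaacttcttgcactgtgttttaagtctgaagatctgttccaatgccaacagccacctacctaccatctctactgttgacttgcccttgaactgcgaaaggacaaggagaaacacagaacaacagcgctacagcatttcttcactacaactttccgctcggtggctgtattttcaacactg
The Trpm5 window held none of these letters, the Cacna1c window 3 E boxes, and the Cacna1d window 3 TATA box matches, of which a pair overlap. Of 32851 such mouse windows, 35.7% held the GC box, 13.6% the TATA box, 72.3% the E box and 1.79% the response element. GC content was 53.0% for Trpm5, 51.3% for Cacna1c and 40.3% for Cacna1d. The Trpm5 and Cacna1c windows thus shared no match, and a match is a description of letters only.

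**Figure D2:**
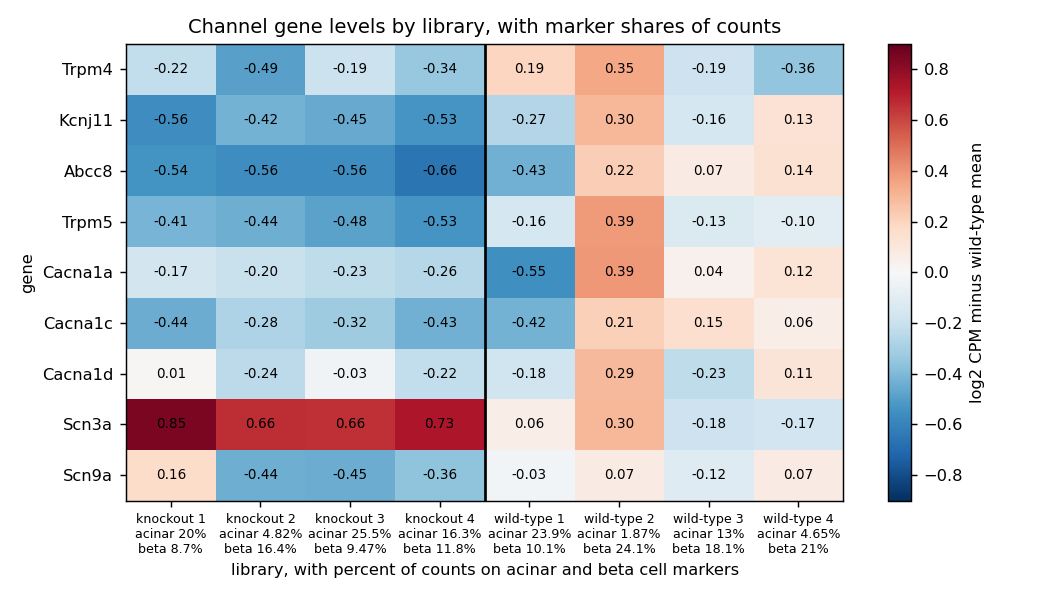
Log2 CPM of each channel gene (rows) in each library (columns, knockout at left) minus the wild-type mean of that gene. Column labels give the percent of counts on the 20 acinar and 13 beta cell markers. Abcc8 is between -0.66 and -0.54 in the knockout libraries and at -0.43 in wild-type replicate 1, and Scn3a is between 0.66 and 0.85 in the knockout libraries.

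Levels between genes were compared per kilobase of transcript. In knockout islets Abcc8 led at 53.4 ± 2.0 CPM per kilobase, followed by Cacna1d (10.6 ± 0.94), Kcnj11 (9.08 ± 0.40) and Trpm5 (6.94 ± 0.24). Cacna1a (4.42 ± 0.12), Cacna1c (4.06 ± 0.23), Scn9a (1.10 ± 0.24), Scn3a (1.02 ± 0.064) and Trpm4 (0.404 ± 0.038) followed in CPM per kilobase. In wild type Abcc8 had 80.8 ± 14.9 CPM per kilobase, Kcnj11 12.9 ± 2.31, Cacna1d 11.6 ± 2.01 and Trpm5 9.72 ± 1.89. Cacna1c (5.31 ± 0.97) and Cacna1a (5.26 ± 1.34) came next in wild type, then Scn9a (1.31 ± 0.082), Scn3a (0.619 ± 0.10) and Trpm4 (0.514 ± 0.12), in the same unit. Library values overlapped for Cacna1a with Cacna1c and for Scn9a with Scn3a in knockout. In wild type they overlapped for Kcnj11 with Cacna1d and with Trpm5, Cacna1d with Trpm5, Cacna1c with Cacna1a, and Scn3a with Trpm4.

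Abcc8 and Kcnj11 are neighbours on chromosome 7, the chromosome of the targeted Rpl13a locus, 37 and 36 tested genes from it. Trpm4 lies closer, 5 tested genes away, and Trpm5 lies on the same chromosome at a distance of 572 tested genes. Cacna1a (chromosome 8), Cacna1c (6), Cacna1d (14), Scn3a and Scn9a (both 2) are unlinked. The median log2 fold change of Abcc8 and Kcnj11 was -0.30 relative to the median of the 5 unlinked genes, the value of Cacna1a. This difference was not tested. Between single libraries of a genotype the same difference in log2 level varied with an SD of 0.109. Whether the estimates followed the distance was not tested. Trpm4, nearest to the locus, had -0.35 ± 0.21 from 31 to 91 counts per library. The distant Trpm5 had -0.48 ± 0.12 and Kcnj11 -0.51 ± 0.12. Among the 5 unlinked genes Cacna1c reached -0.39 and Scn3a 0.72. Beyond the 9 genes, Kcnh6 (chromosome 11) had -0.68 and Hcn4 (chromosome 9) -0.76. Both were picked for the smallest p of their families, and their bearing on linkage was not tested. Of 105 other channel genes 48 had positive and 57 negative estimates, with a median of -0.029. For Trpm4, Kcnj11 and Abcc8, linkage to the targeted allele and the loss of the snoRNAs cannot be told apart.

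The genes next to the KATP pair had estimates near 0. Nomo1, which encodes a protein of the endoplasmic reticulum membrane, had a log2 fold change of -0.078 ± 0.11 and Ush1c, the harmonin gene, one of -0.060 ± 0.14. Farther out stood Ccdc114 at -0.62 ± 0.29, from under 1 CPM, and the potassium channel gene Kcnc1 at 0.19 ± 0.42. Beside Trpm4, the ribosomal protein pseudogene Rpl14-ps1 had 0.44 ± 0.23 and Tead2, a transcription factor gene of the Hippo pathway, 0.76 ± 0.86. Pih1d1 had -0.25 ± 0.25 and Ppfia3, which encodes liprin alpha 3, -0.51 ± 0.17. None of these 8 genes passed FDR 0.05 (edgeR adjusted p from 0.186 to 0.837). Of them 1, Ppfia3, had an unadjusted p under 0.05, where 10.3% of all genes were lower.

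**Figure D3:**
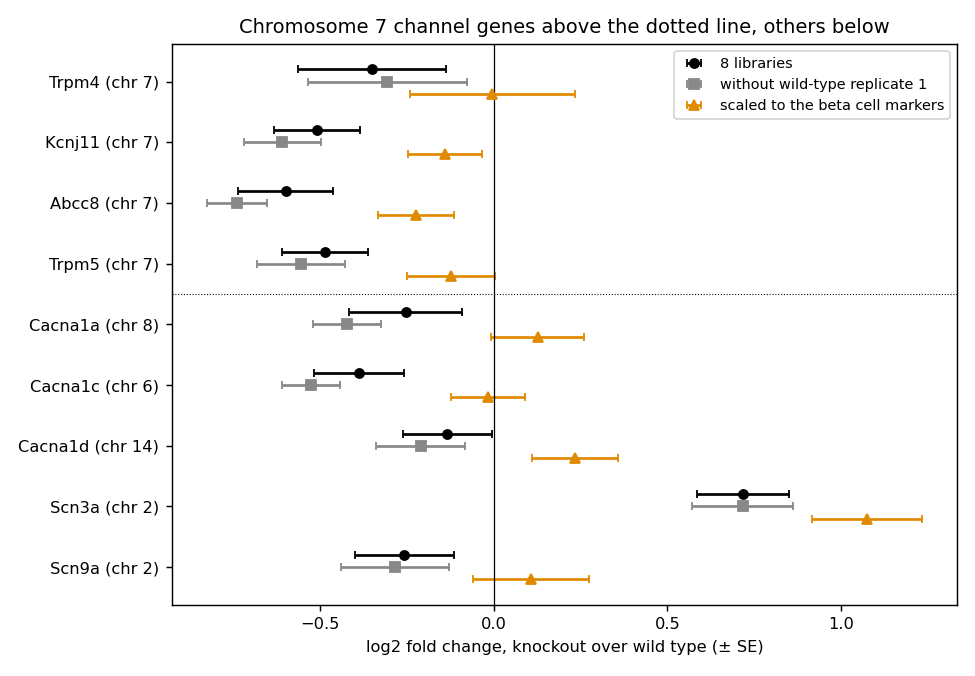
Log2 fold change of knockout over wild type (horizontal axis, bars ± SE) of the 9 channel genes, those on chromosome 7 above the dotted line in order of distance from Rpl13a. Black circles are the fit of all 8 libraries, grey squares the fit without wild-type replicate 1, and orange triangles the fit scaled to the beta cell markers. With the last scaling Abcc8 is at -0.22 and Scn3a at 1.07.

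Beta cell markers outside the channel list had lower estimates too. Negative values were found for 12 of the 13 beta cell markers (median log2 fold change -0.38), against 6634 of all 13617 genes tested. Of the 13 markers 0 passed FDR 0.05 in edgeR's test. At an unadjusted p under 0.05 stood 7 of them, where 10.3% of all genes were lower and 8.42% higher. When libraries were scaled to these markers, Abcc8 had -0.22 ± 0.11 (adjusted p = 0.142), Kcnj11 -0.14 ± 0.11 and Trpm5 -0.12 ± 0.13. Cacna1c had -0.015, Trpm4 -0.0031, Cacna1a 0.13, Cacna1d 0.23 and Scn9a 0.11 on that scale. Scn3a had 1.07 ± 0.16 and passed (adjusted p = 0.0212). This scaling moved the median of all genes to 0.36 and called 23.5% of the genes tested, 3191 of 3201 higher. Scn3a was the one member above that median.

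Acinar markers had higher estimates in knockout. All 20 acinar markers had positive log2 fold changes (median 0.50, 0 past FDR 0.05 and 0 at an unadjusted p under 0.05). In a fit that held the acinar share as a covariate, the log2 fold changes were -0.49 for Abcc8, -0.40 for Kcnj11, -0.41 for Trpm5, -0.28 for Cacna1c, -0.091 for Cacna1a and 0.73 for Scn3a, and none passed. Knockout replicates 1 and 4 and wild-type replicate 4 held over 1000 counts of the female-specific RNA Xist, and with that as a covariate Abcc8 had -0.61 and Scn3a 0.73. Of the other endocrine cells, 6 of 8 alpha cell markers (median 0.11) and 6 of 6 delta and PP cell markers (median 0.38) had positive estimates, and 0 of either list reached an unadjusted p under 0.05. Alpha markers took 0.286 to 0.680% of counts in knockout and 0.327 to 0.624% in wild type, and delta and PP markers 0.0506 to 0.158% and 0.0664 to 0.126%. Of 4 neuron and Schwann cell markers tested 2 had positive estimates, and 0 reached an unadjusted p under 0.05. Their part in the higher Scn3a level was not tested.

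On the authors' RPM scale, without a composition factor, the directions of the 9 genes were the same. Abcc8 had 122, 182, 113 and 155 RPM in knockout replicates 1 to 4 and 131, 317, 236 and 295 RPM in wild-type replicates 1 to 4. Scn3a had 4.81, 6.45, 3.95 and 6.17 RPM in knockout and 2.77, 5.08, 2.97 and 3.57 RPM in wild type. The groups overlapped for both, and of the 9 genes Trpm4 alone was apart, at 0.792 to 1.06 RPM in knockout and 1.08 to 1.93 RPM in wild type. On log2(RPM + 1) limma gave -0.72 ± 0.31 for Abcc8 and 0.47 ± 0.23 for Scn3a (adjusted p = 0.817 for each).

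Patterns over the 8 libraries were compared with Abcc8 by the root mean square difference of log2 CPM, each gene centred on its own mean. The nearest genes were Gipr, the receptor gene for the incretin GIP (0.042), Kif1a, a kinesin of vesicle transport (0.051), Celf3, an RNA-binding protein gene (0.055), Syngr1, a synaptic vesicle protein gene (0.057), and Rundc3a (0.058). They were picked by pattern, so their log2 fold changes are close to that of Abcc8. These were -0.63 for Gipr (chromosome 7), -0.56 for Kif1a (1), -0.58 for Celf3 (3), -0.52 for Syngr1 (15) and -0.62 for Rundc3a (11). The median difference in pattern over all other genes tested was 0.416. Of the channel genes Kcnj11 (0.120) and Cacna1c (0.122) came closest and Scn3a (0.692) was farthest. All genes in this comparison were read from the same 8 libraries, with the same depths and exocrine shares.

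Beyond the 9 genes, 159 other channel genes stood in the table and 105 passed the filter on low counts. Of these 48 had positive and 57 negative log2 fold changes. Their median was -0.029, and 0 passed FDR 0.05 in edgeR's test. At an unadjusted p under 0.05, 16 were lower (15.2%, against 10.3% of all genes) and 2 higher (1.91%, against 8.42%). All 4 knockout libraries lay below all wild-type libraries for 4 of the 105, against 4.66% of all genes. They lay above them for 1, against 3.68%. DESeq2 called 5 of the 105, all lower, against 3.8% of all genes. Without wild-type replicate 1, 13 of 111 passed, 12 lower and 1 higher, against 9.46% of all genes.

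Voltage-gated potassium channels repolarize the beta cell. At an unadjusted p under 0.05, 7 of 27 were lower (25.9%, against 10.3% of all genes) and 0 higher (against 8.42%). Their median log2 fold change was 0.067. Kcnh6, an ether-a-go-go related channel, had 6.94, 8.35, 8.61 and 7.58 CPM in knockout replicates 1 to 4 and 9.26, 16.1, 13.5 and 11.7 CPM in wild-type replicates 1 to 4. No knockout library reached the lowest wild-type library, and the log2 fold change was -0.68 ± 0.16 (edgeR adjusted p = 0.124). Kcnd1, which encodes an A-type channel, had -0.69 ± 0.22 from a low level. Among calcium-activated potassium channels the smallest p-values were those of the accessory subunit genes Kcnmb1 (-0.46 ± 0.23) and Kcnmb2 (0.19 ± 0.16), and none of 7 reached an unadjusted p of 0.05.

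Inward rectifier and two-pore channels had 3 of 12 genes lower at an unadjusted p under 0.05 (25%, against 10.3% of all genes). None was higher (against 8.42%), and the median log2 fold change of the 12 was 0.033. Kcnk16 encodes TALK-1, a two-pore background channel of beta cells. It averaged 13.7 ± 2.26 CPM in knockout and 19.9 ± 3.83 CPM in wild type (log2 fold change -0.54 ± 0.16, edgeR adjusted p = 0.151). Kcnk12 had -1.07 ± 0.37 from less than 1 CPM. Of the pacemaker channel genes, Hcn4 had 4.82, 6.46, 4.46 and 4.18 CPM in knockout and 6.33, 10.7, 7.95 and 8.94 CPM in wild type. Knockout replicate 2 overlapped with wild-type replicate 1, and the log2 fold change was -0.76 ± 0.19 (edgeR adjusted p = 0.135). Hcn3 had -0.61 ± 0.17. In the family of 19 chloride, anion and HCN channels 3 were lower at an unadjusted p under 0.05 (15.8%, against 10.3%).

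Of the release channels of the endoplasmic reticulum, Itpr3, an inositol trisphosphate receptor, averaged 14.4 ± 2.72 CPM in knockout and 21.4 ± 3.08 CPM in wild type (log2 fold change -0.58 ± 0.15, edgeR adjusted p = 0.143). Stim2, a calcium sensor of store-operated entry, had a log2 fold change of 0.28 ± 0.11 with overlapping groups (edgeR adjusted p = 0.219). At an unadjusted p under 0.05, 2 of the 9 genes in that family were lower (22.2%, against 10.3% of all genes). There was 1 higher gene (11.1%, against 8.42%). Of 6 other calcium channel pore genes 0 reached an unadjusted p of 0.05, with the T-type genes Cacna1g at -0.56 ± 0.31 and Cacna1i at -0.34 ± 0.26. The auxiliary subunit genes Cacnb3 and Cacnb1 had -0.41 ± 0.14 and -0.23 ± 0.18. Among 7 other sodium channel genes, Scn8a, the Nav1.6 gene, had -0.29 ± 0.17. None of these 7 reached an unadjusted p of 0.05. Of 11 other TRP channel genes 0 reached it, with the lysosomal channel gene Mcoln1 at -0.26 ± 0.14 and the channel kinase gene Trpm7 at 0.15 ± 0.096.

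**Figure D4:**
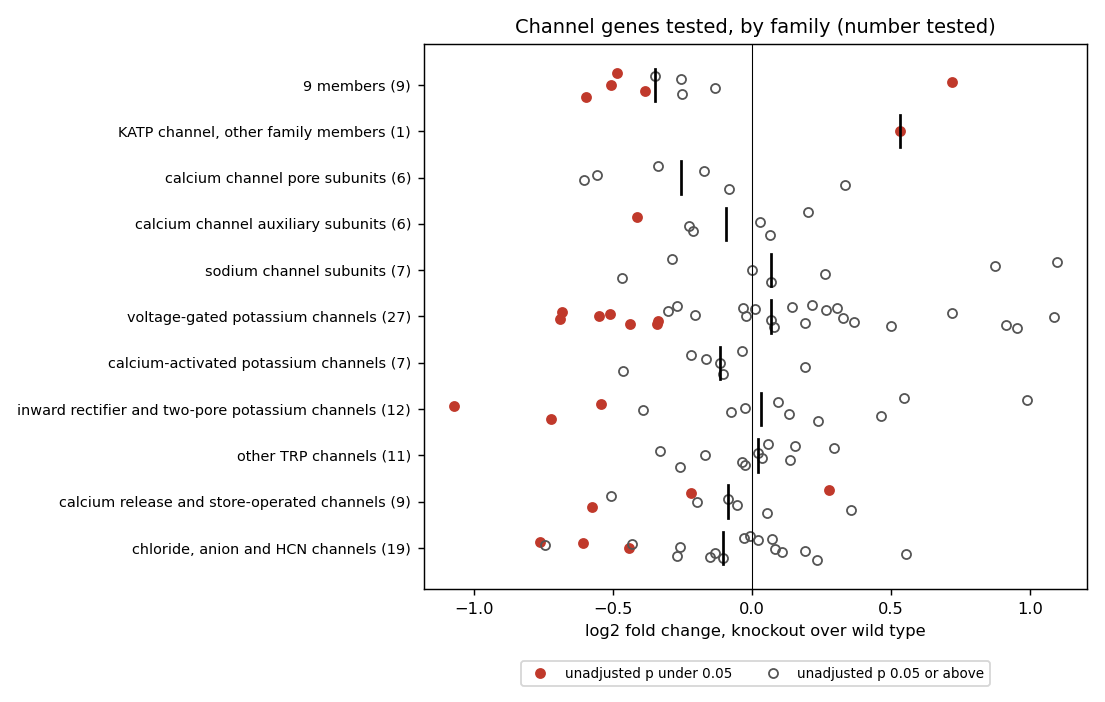
Log2 fold change of knockout over wild type (horizontal axis) for the 9 channel genes and 105 other channel genes tested, by family, with the number tested in brackets. Each point is a gene, filled where its unadjusted p was under 0.05, and black bars are family medians. The 9 genes have a median of -0.35, and 16 of the 18 filled points among the other families lie below 0.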

How the data were processed

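Islet RNA of 4 knockout and 4 wild-type mice was extracted with TRIZOL, treated with DNase and made into SeqPlex libraries (per the labels' protocols). STAR 2.4.1, Partek and mm9 appear in the submitters' processing notes. Not given in the sources used here were their roles, the annotation and the strand setting. The deposited table of estimated counts (9.98 to 12.4% of values per library not whole within 0.01) was rounded to whole numbers before testing. The authors' RPM table holds those counts over 1 constant per library, plus 0.0001, per the values.

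The main test was that of edgeR 4.0.16 (R 4.3.3; TMM, filterByExpr, robust quasi-likelihood F-test, Benjamini-Hochberg over 13617 genes), and the fit was tested on simulated data. SE comes from the F statistic. Group ratios used exact permutation tests. Alternatives used limma 3.58.1, DESeq2 1.42.0, other scalings, filters and covariates, and each library left out. No libraries were copies (smallest chi-square per degree of freedom 24.6). Transcript lengths came from GENCODE M21 and gene order from RefSeq, both GRCm38; 95.9% of symbols matched, and coordinates are printed for promoter windows alone. The 9 members and all lists were chosen with earlier results of these data known. Named other genes are the 2 of smallest p per family, the 2 on each side of Kcnj11, Abcc8 and Trpm4, and the 5 nearest in pattern to Abcc8; 1 gene picked by this rule is not reported here. Reads were amplified without molecular identifiers, so a count is not a number of independent molecules.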

Additional observations from a re-analysis of the deposited data

Results flagged for a closer look

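Of 56 groups of 4 libraries looked at (9 channel genes and 19 other named channel genes, each in knockout and wild type), 3 held a library far from the others by Dixon's criterion, the gap to the nearest library divided by the range of the group. Chance flags about 1 in 20 groups. Scn9a in knockout was highest in replicate 1, at 14.4 CPM, with a gap of 0.883 of the range. Trpm5 in wild type was highest in replicate 2, at 51.7 CPM, with a gap of 0.916 of the range. Abcc8 in knockout was lowest in replicate 4, at 246 CPM, with a gap of 0.857 of a narrow range.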

How the results depend on the processing

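Over 23 alternatives, 2 of them chosen after seeing the data (high Xist as a covariate, and library sizes without Rn45s, Lars2 and Mir6236), Abcc8, Kcnj11, Cacna1c, Trpm5 and Trpm4 stayed negative and Scn3a positive. Scaled to the beta cell markers, Cacna1a (0.13), Cacna1d (0.23) and Scn9a (0.11) turned positive. The members past FDR 0.05 numbered 0 with all 8 libraries, 4 with DESeq2 (Abcc8, Kcnj11, Trpm5 and Scn3a), 1 with the beta cell scaling, and 0 to 6 with 1 library left out. The other channel genes past FDR 0.05 numbered 5 with DESeq2, 11 with the beta cell scaling, all higher, and 0 to 13 with a library left out. Among all genes 2 passed, against 517 with DESeq2, 3201 with the beta cell scaling, 48 with no composition factor, 5 with a pseudocount of 0.1 on RPM, and 2 to 1313 with a library left out. Leaving out wild-type replicate 1 gave the counts of 6, 13 and 1313. Leaving out knockout replicate 4 gave 5 genes. The cause was not tested. With no composition factor the median of all genes moved to -0.11, and with limma-trend on RPM to -0.088 (pseudocount 1) and -0.13 (0.1). The difference between the KATP genes and the unlinked genes ran from -0.39 to -0.28. With the replicate number as a block 2 genes and 0 members passed. Same-numbered libraries correlated at 0.0383, 0.210, 0.156 and 0.147 across genes, so the numbers were not taken to pair the mice. Trpm4 had 31 to 91 counts per library, which limits the precision of its level.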
